A study of Mus musculus with 18 samples.

Results

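The genes described here encode the heavy chains of mouse MHC class I molecules and their shared light chain. They were taken by symbol from a deposited RNA-seq table: *H2-K1*, *H2-D1*, *H2-Q2*, *H2-Q4*, *H2-Q6*, *H2-Q7*, *H2-Q8*, *H2-Q9*, *H2-T23* and *B2m*. These are 10 of the 20612 gene symbols of the table, and they filled 26 of its 22013 rows, because 6 of the 10 symbols had more than 1 row. The row of highest mean was used for each symbol unless another is named, and all 10 genes passed the filter on low values, which asked for 2 or more libraries with an RPKM of 1 or higher. The genes were chosen by their day 0 differences between the mutants and WT, as known from earlier results of these libraries, so differences from WT at day 0 are given as a description without a test.

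The libraries came from muscle stem cells (MuSCs) of 4-month-old semi-cloned (SC) mice. DSM-TKO mice (TKO) were heterozygous for mutations in *Dmpk*, *Six5* and *Mbnl1*, DSMD-QKO mice (QKO) carried a heterozygous *Dmwd* mutation in addition, and WT mice carried none of these. The haploid lines behind QKO were made from a TKO line, and no source says which clone gave the cells of a library. All mice, WT included, were made by injecting haploid embryonic stem cells of the line O48, which lacks the *H19*-DMR and the IG-DMR, into oocytes of B6D2F1 (C57BL/6J × DBA/2) females. The oocyte donors thus segregated the *H2* complexes of both strains, although the strain label of every library is C57BL/6. Cells were collected after expansion in T cell conditional medium (day 0) and after 1 and 2 days in differentiation medium, with 2 libraries for each genotype and day (n = 2) and 18 in all. No source said whether the replicates were separate cultures or animals, so the p-values below take in no more than the variation from library to library, possibly technical.

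MHC class I molecules display short peptides from inside the cell to CD8 T cells and natural killer cells. Peptides are cut by the proteasome, carried into the endoplasmic reticulum by the Tap1/Tap2 transporter and bound by a heavy chain paired with β2-microglobulin, the product of *B2m*. *H2-K1* and *H2-D1* encode the classical heavy chains, *H2-T23* encodes Qa-1, a ligand of an inhibitory natural killer receptor, and the *H2-Q* genes encode non-classical chains, with *H2-Q7* and *H2-Q9* among those that encode Qa-2. Interferon raises these genes through a response element (ISRE) in the promoter, next to an NF-κB site, and resting muscle fibres are known for low class I expression.

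Promoter sequences are shown for the 5 genes whose window held the interferon-type letters searched. The promoter is the part of the gene through which the group is known to be controlled together. Windows of 300 bases around the transcript start were available from RefSeq (GRCm38.p6) for 8 of the 10 genes, and *H2-Q8* and *H2-Q9* are named only. The letters GAANNGAAA (interferon-type) and GGGANTCCC (κB-type) were searched on both strands. In the stretches below, written 5′ to 3′ along the gene, the κB-type match and the interferon-type match, which reads TTTCNNTTC on this strand, are in capitals. They lie at chr17:34000404-34000473 (*H2-K1*, minus strand), chr17:35262908-35262977 (*H2-D1*), chr17:35379428-35379497 (*H2-Q4*), chr17:35424662-35424731 (*H2-Q6*) and chr17:35439006-35439075 (*H2-Q7*), all but *H2-K1* on the plus strand.
H2-K1: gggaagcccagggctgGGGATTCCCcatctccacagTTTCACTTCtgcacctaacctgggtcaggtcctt
H2-D1: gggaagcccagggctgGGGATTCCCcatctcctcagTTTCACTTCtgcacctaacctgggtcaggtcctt
H2-Q4: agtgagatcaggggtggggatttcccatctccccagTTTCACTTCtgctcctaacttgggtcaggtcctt
H2-Q6: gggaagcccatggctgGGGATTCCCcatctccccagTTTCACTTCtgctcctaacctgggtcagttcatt
H2-Q7: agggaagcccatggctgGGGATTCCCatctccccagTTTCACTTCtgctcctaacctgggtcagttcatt

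The interferon-type letters stood in 5 of the 8 windows and the κB-type letters in 4, each of which held both. Of the 32851 windows in the table, 7.52% held the interferon-type letters, 0.767% the κB-type letters and 0.0426% (14 windows) both. *H2-Q4* had no exact κB-type match at the place where the other 4 had theirs, and reads ggggatttccc there. No exact match to either set of letters was found in the windows of *B2m*, *H2-T23* and *H2-Q2*. Only exact matches were counted, so a window without a match may still hold a related site. The *B2m* window held gaaactgaaa, which differs from the interferon-type letters by an added base. The window of *H2-Q2* (chr17:35342057-35342356, plus strand) is shown because this gene was the exception to the group in TKO.
H2-Q2: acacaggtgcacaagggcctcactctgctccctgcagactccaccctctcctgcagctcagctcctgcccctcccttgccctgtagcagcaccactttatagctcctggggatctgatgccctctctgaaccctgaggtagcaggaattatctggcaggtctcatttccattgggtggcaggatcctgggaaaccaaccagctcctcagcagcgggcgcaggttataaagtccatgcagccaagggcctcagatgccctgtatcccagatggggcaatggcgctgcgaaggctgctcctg

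On GRCm38.p6, *H2-K1* lies at chr17:33996012-34000619, *H2-D1* at chr17:35263094-35267497, *H2-Q2* at chr17:35342307-35346764, *H2-Q4* at chr17:35379617-35384674, *H2-Q6* at chr17:35424850-35430055, *H2-Q7* at chr17:35439140-35443773 and *H2-T23* at chr17:36029977-36032701. *B2m* lies outside this complex, at chr2:122147687-122153082. The heavy chain genes are near copies of each other. In global alignments of coding sequences from GENCODE, *H2-Q6* and *H2-Q7* were 95.4% identical and *H2-K1* and *H2-D1* 91.5%. *H2-Q4* shared 90.2 to 90.8% with *H2-K1*, *H2-D1*, *H2-Q6* and *H2-Q7*, *H2-Q2* shared 85.6 to 88.2% with those 4 and *H2-Q4*, and *H2-T23* shared 81.1 to 83.7% with the other 6 heavy chain genes aligned. The authors' counting could therefore divide reads between copies, and a single *H2-Q* level is uncertain. *H2-Q7* and *H2-Q9* stood in a ratio of 0.988 to 1.14 in all 18 libraries and *H2-Q6* and *H2-Q8* in a ratio of 0.849 to 1.23, so the symbols of each pair are not independent readings.

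Some libraries stood apart within the *H2* complex. The table held 8 rows that were above 0.3 RPKM in each of the 6 TKO libraries and at least 3 times above every QKO library, and no row with the reverse pattern. All 8 were on chromosome 17: the 4 *H2-Q2* rows, 2 *H2-Bl* rows, *H2-T3* (which encodes the TL antigen) and the class I-like row *LOC547349*. These criteria pooled the 3 days. In its highest row *H2-T24* missed the reverse criteria but was higher in every QKO than in every TKO library. At day 0 it was at 3.89 and 5.37 RPKM in QKO and 0.893 and 1.05 in TKO libraries, against 1.545 and 0.0454 in WT. *LOC547349* was at 3.05 and 3.45 RPKM in TKO and at 0 and 0.0159 in QKO libraries of day 0, against 1.23 and 1.24 RPKM in WT. At day 1 it was at 1.85 and 2.45 RPKM in TKO and at 0.0139 and 0.0381 in QKO libraries, against 0.0437 and 0 in WT. The WT libraries thus lay between the mutants at day 0 and beside QKO, near 0, at day 1, as they did in *H2-T3* and *H2-Bl*. Whether the mice of these groups carried the same *H2* haplotype is not in the labels, so genotype and haplotype cannot be told apart for the chromosome 17 genes. *B2m* lies on another chromosome.

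Read depth, recovered from the step size of the low values, was 34.8 to 60.7 M reads a library. The RPKM column of the second WT library of day 0 summed to 555791, against 370850 to 428739 in the other 17. *Pax7* and *Myod1*, which define MuSCs and commit them to muscle, were present: at day 0 *Pax7* was at 24.9 and 20.8 RPKM in TKO and 26.9 and 26.7 in QKO libraries, against 27.6 and 11.7 in WT, and *Myod1* was between 552 and 1009 RPKM in all 6. The summed level of 11 immune markers at day 0 was 10.4 to 10.5 RPKM in TKO and 5.92 to 6.12 in QKO libraries. In WT it was 3.13 to 5.16 RPKM. Only 4 of the 11 markers passed the filter on low values, and *Laptm5* made up most of the TKO sum. *Laptm5* was at 6.465 and 7.75 RPKM in TKO and 3.18 and 2.83 in QKO libraries, against 1.18 and 1.26 in WT. *Cd68* did not follow this order, with both TKO libraries between the WT libraries. The leukocyte gene *Ptprc* was at or below 0.0171 RPKM in all 18 libraries. At day 1 the summed level was 3.49 to 4.10 RPKM in TKO and 2.98 to 4.32 in QKO libraries. In WT it was 4.69 to 8.84 RPKM, so the order of the groups was not the same on the 2 days. Most of each day 1 sum was *Laptm5* and *Itgam*, both lower in every mutant library than in WT. The sums thus followed few genes and are not read as a level of immune cells. *Ly6a*, the Sca1 gene whose product the described gate selects against, was at 83.7 and 80.3 RPKM in TKO and 85.1 and 108 in QKO libraries at day 0, against 56.1 and 59.5 in WT. *Thy1*, of the same fibro-adipogenic list, was at 9.64 and 7.79 RPKM in TKO and 6.47 and 6.16 in QKO libraries at day 0, against 0.0937 and 0.019 in WT. Both genes were thus higher in every mutant library than in WT. The summed endothelial markers ran the other way, at 0.614 to 0.712 RPKM in TKO and 0.541 to 0.701 in QKO libraries, against 1.29 to 2.02 in WT. In this sum *Kdr* was at 0.0712 and 0.0603 RPKM in TKO and 0.0931 and 0.134 in QKO libraries, against 1.18 and 0.638 in WT. *Pecam1* was also lower in every mutant library than in WT. *Cdh5* and *Tek* were instead higher in every mutant library, with *Cdh5* at 0.166 and 0.0823 RPKM in TKO and 0.061 and 0.0434 in QKO libraries, against 0.0411 and 0 in WT. All these endothelial levels were low. The summed muscle markers were at 2959 to 3592 RPKM in TKO and 2847 to 3303 in QKO libraries at day 0, against 1623 to 1628 in WT. The part of these marker differences in the class I levels was not tested, and in bulk RNA fewer cells of a type and less RNA per cell cannot be told apart.

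At day 0, 9 of the 10 genes were lowest in TKO and highest in WT by group mean, with QKO between them. In the lowest row of *H2-Q4*, QKO was instead lowest, at 36.6 and 41.3 RPKM. That row was at 62.2 and 60.2 RPKM in TKO and 88.7 and 104 in WT. *H2-K1* was at 166 and 188 RPKM in TKO and 554 and 465 in QKO libraries, against 552 and 792 in WT. *H2-D1* was at 274 and 305 RPKM in TKO and 590.5 and 465 in QKO libraries, against 574 and 886 in WT. For these classical genes the TKO libraries were below all others, and the ranges of QKO and WT overlapped. *B2m* was at 1042 and 1164 RPKM in TKO and 1578 and 1533 in QKO libraries, against 1972 and 3096 in WT, with no overlap between any of the groups. The differences from WT in log2(RPKM + 1) ran from -3.35 ± 0.31 (SE; *H2-Q9*) to 0.39 ± 0.13 (*H2-Q2*) in TKO, with a median of -2.06, and from -1.90 ± 0.13 (*H2-Q2*) to -0.38 ± 0.22 (*H2-K1*) in QKO, with a median of -1.28. They were below 0 for 9 of the 10 genes in TKO and for all 10 in QKO. Over all 11890 genes the medians were 0.01 and -0.01, and 23% of genes passed the test in TKO and 35.5% in QKO. These comparisons were used in choosing the genes and are not read further.

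**Figure D1:**
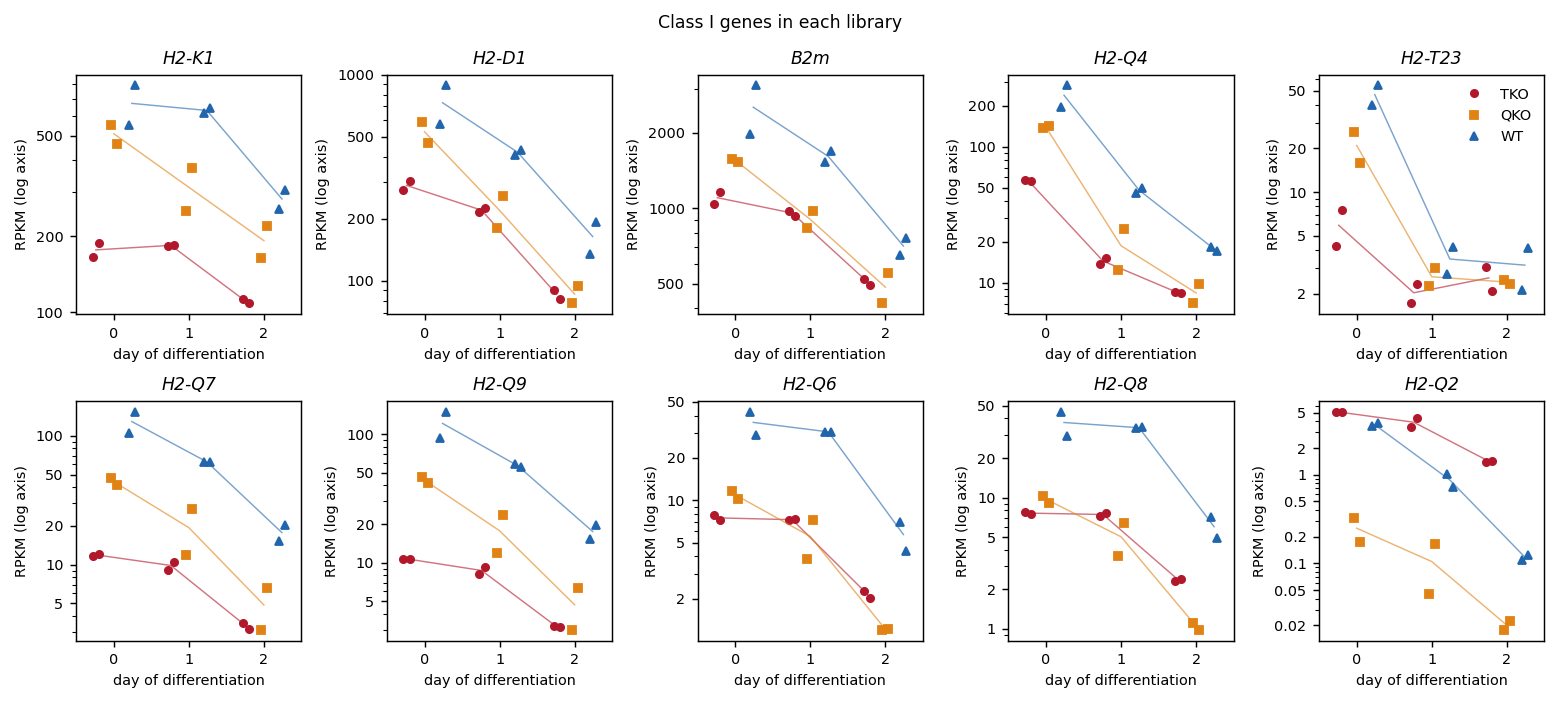
RPKM of the 10 genes (log axes) in each of the 18 libraries by day of differentiation; points are libraries, lines join the group means, and TKO, QKO and WT stand left to right within a day. *H2-K1* sits at 166 and 188 RPKM in TKO at day 0, against 552 and 792 in WT, while *H2-Q2* sits highest in TKO and near 0 in QKO.

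The question at days 1 and 2 was whether class I genes still differed from WT once the cells had left expansion medium. They did at day 1: 6 of the 10 genes were lower and 1 was higher in TKO than in WT, and 8 were lower and none higher in QKO than in WT, at an adjusted p under 0.05 (limma on log2(RPKM + 1), Benjamini-Hochberg over 11890 genes). Over all genes 2.08% passed in TKO and 2.76% in QKO. The median difference of the 10 genes was -1.72 in TKO and -1.21 in QKO, against 0.01 and -0.0046 over all genes. At day 2, 3 genes were lower and 1 was higher in TKO (0.109% of all genes passed, 13 genes) and 4 were lower in QKO (0.345%, 41 genes), with medians of -1.01 and -0.96 against 0.03 and -0.09 over all genes. TKO and QKO were set against the same WT libraries, so these are not independent results.

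**Figure D2:**
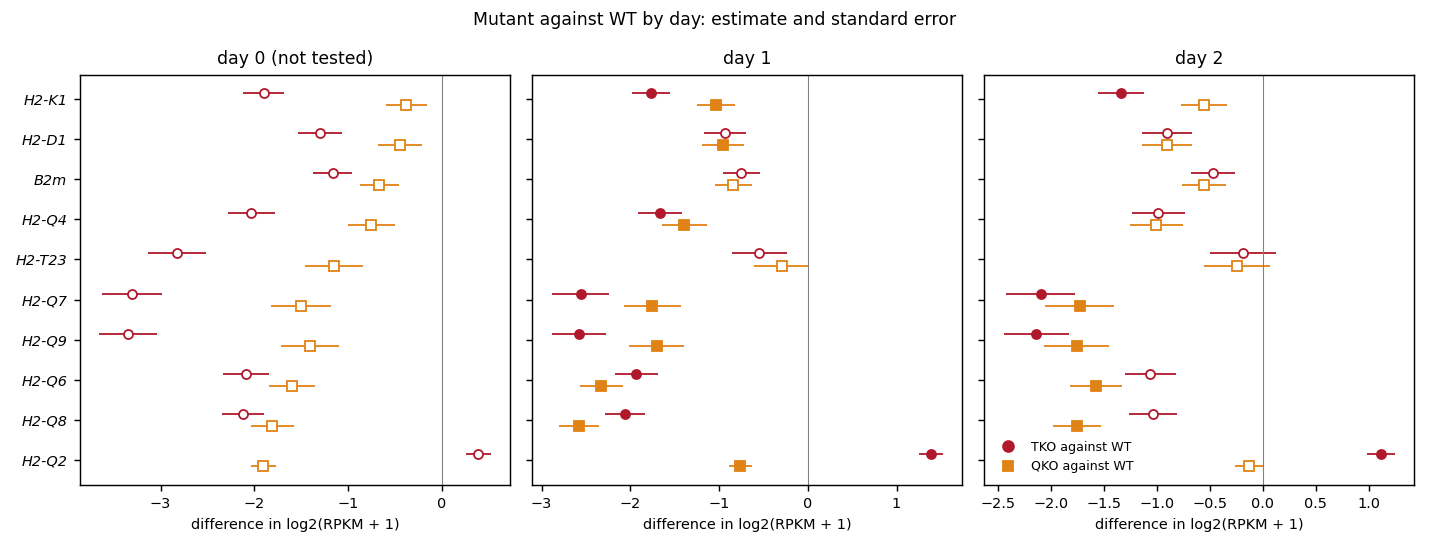
Difference of TKO and QKO from WT in log2(RPKM + 1) for each gene and day, with bars for the standard error; filled symbols passed an adjusted p under 0.05 and open ones did not, and day 0 was not tested. At day 1 *H2-Q8* sits at -2.05 in TKO and -2.58 in QKO, and *H2-Q2* at 1.39 in TKO and -0.76 in QKO.

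*H2-K1*, a classical heavy chain, was at 183 and 185 RPKM in TKO and 253 and 372 in QKO libraries of day 1, against 615 and 645 in WT. At day 2 it was at 112 and 108 RPKM in TKO and 164 and 220.1 in QKO libraries, against 256 and 305 in WT. The order was TKO, QKO, WT on both days, with no overlap of groups. In TKO *H2-K1* was lower by -1.77 ± 0.22 at day 1 (adjusted p = 0.0011) and by -1.33 ± 0.22 at day 2 (adjusted p = 0.031). In QKO it was lower by -1.04 ± 0.22 at day 1 (adjusted p = 0.025), while the day 2 difference of -0.56 ± 0.22 did not pass (adjusted p = 0.27).

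*H2-D1*, the other classical heavy chain, was at 214 and 225 RPKM in TKO and 179.7 and 259 in QKO libraries of day 1, against 408 and 432 in WT. At day 2 it was at 90.5 and 81.2 RPKM in TKO and 77.6 and 94.4 in QKO libraries, against 135 and 193 in WT. Both mutants lay below WT and overlapped each other. The day 1 difference passed in QKO (-0.96 ± 0.24, adjusted p = 0.047) and not in TKO (-0.93 ± 0.24, adjusted p = 0.063), and the sizes were nearly the same. *B2m* was at 979 and 935 RPKM in TKO and 831 and 973 in QKO libraries of day 1, against 1527 and 1695 in WT. Its differences of -0.75 ± 0.21 in TKO and -0.84 ± 0.21 in QKO (adjusted p = 0.088 and 0.0502) did not pass, and at day 2 they were -0.47 ± 0.21 and -0.55 ± 0.21.

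*H2-Q7*, a Qa-2 gene, was at 9.15 and 10.5 RPKM in TKO and 11.9 and 26.8 in QKO libraries of day 1, against 62.8 and 62.8 in WT. At day 2 it was at 3.50 and 3.18 RPKM in TKO and 3.13 and 6.59 in QKO libraries, against 15.2 and 20.2 in WT. *H2-Q6* was at 7.24 and 7.31 RPKM in TKO and 3.83 and 7.23 in QKO libraries of day 1, against 30.5 and 30.7 in WT. None of the mutant libraries reached a WT library of the same day in either gene. *H2-Q7* was lower by -2.56 ± 0.32 in TKO and -1.75 ± 0.32 in QKO (adjusted p = 0.0013 and 0.013) at day 1, and its copy *H2-Q9* by -2.58 ± 0.31 and -1.70 ± 0.31. *H2-Q6* was lower by -1.93 ± 0.24 in TKO and -2.32 ± 0.24 in QKO (adjusted p = 0.0013 and 0.00038), and its copy *H2-Q8* by -2.05 ± 0.23 and -2.58 ± 0.23. At day 2, *H2-Q7* and *H2-Q9* passed in TKO (-2.10 ± 0.32 and -2.14 ± 0.31), and all 4 passed in QKO (-1.57 to -1.75). When the 4 copies were summed and tested as 1 gene, the difference was -2.44 ± 0.28 in TKO and -2.02 ± 0.28 in QKO at day 1 (adjusted p = 0.00067 and 0.0036), and -1.99 ± 0.28 and -1.95 ± 0.28 at day 2 (adjusted p = 0.012 and 0.0087).

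The *H2-Q7* to *H2-Q6* ratio, which compares levels per length, was not steady between replicates. It was 1.26 to 1.68 in the 6 TKO libraries. In QKO it was 4.02 and 4.05 at day 0, 3.11 and 3.71 at day 1 and 2.60 and 5.41 at day 2. In WT it was 2.45 and 5.32 at day 0, 2.06 and 2.05 at day 1 and 2.16 and 4.63 at day 2. TKO libraries had the lowest ratios, and the replicates of WT at days 0 and 2 and of QKO at day 2 were as far apart as genotypes were.

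*H2-Q4*, a non-classical chain, had 4 rows that did not tell the same story. In its highest row it was at 13.7 and 15.1 RPKM in TKO and 12.4 and 25.0 in QKO libraries of day 1, against 45.8 and 50.1 in WT. In its lowest row it was at 16.3 and 19.2 RPKM in TKO and 5.70 and 10.4 in QKO libraries, against 15.5 and 16.5 in WT. By the highest row TKO was lower than WT (-1.66 ± 0.25, adjusted p = 0.0047), and by the lowest row it was not (0.14 ± 0.21, adjusted p = 0.87). In QKO both rows were lower than in WT, by -1.39 ± 0.25 (adjusted p = 0.012) in the highest row and -0.96 ± 0.21 (adjusted p = 0.029) in the lowest. At day 2 neither mutant passed in either row.

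*H2-T23* was at 4.23 and 7.59 RPKM in TKO and 26.0 and 15.9 in QKO libraries of day 0, against 39.7 and 54.4 in WT. At day 1 it was at 1.71 and 2.34 RPKM in TKO and 2.24 and 2.98 in QKO libraries, against 2.71 and 4.21 in WT. The groups were thus apart at day 0, while at day 1 QKO overlapped both TKO and WT. The day 1 differences of -0.55 ± 0.31 in TKO and -0.29 ± 0.31 in QKO did not pass (adjusted p = 0.50 and 0.66), nor did those of day 2 (-0.18 and -0.24).

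*H2-Q2* went against the group. It was at 5.14 and 5.07 RPKM in TKO and 0.327 and 0.172 in QKO libraries of day 0, against 3.53 and 3.81 in WT. At day 1 it was at 3.48 and 4.35 RPKM in TKO and 0.0451 and 0.165 in QKO libraries, against 1.02 and 0.731 in WT. At day 2 it was at 1.41 and 1.43 RPKM in TKO and 0.0179 and 0.0222 in QKO libraries, against 0.110 and 0.126 in WT. TKO libraries were the highest on every day and QKO libraries the lowest, with no overlap. In recovered reads these day 2 levels were 55 and 66 reads in TKO and 1 and 1 in QKO libraries, against 6 and 7 in WT. *H2-Q2* was higher in TKO than in WT by 1.39 ± 0.13 at day 1 (adjusted p = 0.00013) and 1.11 ± 0.13 at day 2 (adjusted p = 0.0061), and lower in QKO by -0.76 ± 0.13 at day 1 (adjusted p = 0.010), while at day 2, where QKO and WT were both near 0, the QKO difference of -0.13 ± 0.13 did not pass. Its 4 rows gave nearly the same levels, with ratios of the lowest to the highest row of 0.848 to 1.02 in TKO.

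**Figure D3:**
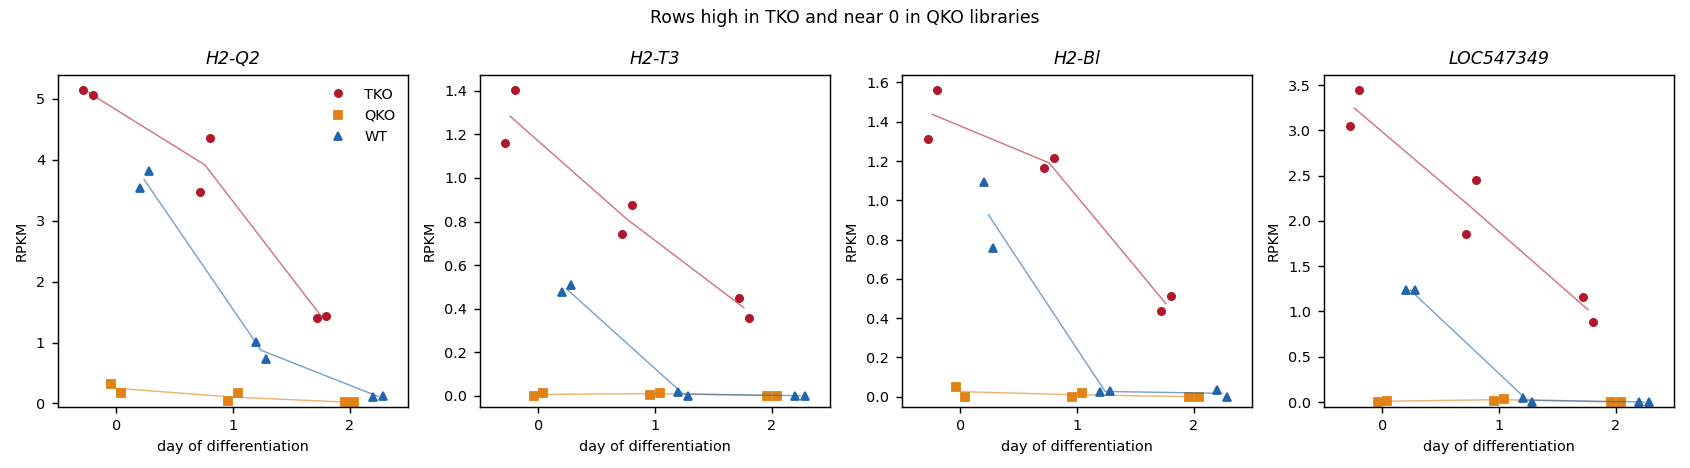
RPKM of *H2-Q2*, *H2-T3*, *H2-Bl* and *LOC547349* in each of the 18 libraries by day, with lines through the group means. TKO libraries are highest on each day, QKO libraries lie near 0, and WT libraries stand between them at day 0 (*LOC547349* at 1.23 and 1.24 RPKM) but near QKO at day 1 in all but *H2-Q2* (1.02 and 0.731 RPKM).

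The count of genes passing at day 1 in TKO lay between 6 and 9 when any library was left out. In QKO the day 1 count of 8 was 2 without QKO day 1 replicate 1, 2 without WT day 1 replicate 1 and 3 without WT day 1 replicate 2. At day 2 the TKO count of 4 was 0 without either TKO day 2 library, and 2 without either TKO day 1 library, either WT day 1 library or WT day 2 replicate 1. The QKO count of 4 at day 2 was 1 without QKO day 2 replicate 1 or WT day 2 replicate 1, and 2 without any single TKO library or either WT day 1 library. With only the 6 libraries of day 2 in the fit, 0 genes passed in TKO and 0 in QKO. The calls for *H2-K1*, *H2-Q2*, *H2-Q6*, *H2-Q7*, *H2-Q8* and *H2-Q9* in TKO and for *H2-Q6* and *H2-Q8* in QKO at day 1 passed under every alternative run that gave a value, with the highest adjusted p at 0.029 (*H2-Q7*). For *H2-K1* the voom run among these used approximate counts. The difference from WT did not change detectably between day 1 and day 2 in either mutant: for the change of the difference, no gene of the 10 passed (0% of all genes passed in TKO and 0.00841% in QKO), and 2 and 3 of the 10 were at an unadjusted p under 0.05 by limma.

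The comparison of QKO with TKO sets mice with the added *Dmwd* mutation against mice without it. A difference in *H2* haplotype, which the labels do not give, or in haploid line cannot be told apart from this mutation. *H2-Q2* was also among the chromosome 17 rows that parted TKO from QKO libraries. The day 0 values of the comparison are a description without a test, because the genes were chosen by the levels of these same libraries. In log2(RPKM + 1) the differences of QKO from TKO at day 0 were 1.52 ± 0.22 for *H2-K1*, 0.85 ± 0.24 for *H2-D1*, 0.50 ± 0.21 for *B2m*, 1.28 ± 0.25 for *H2-Q4*, 1.80 ± 0.32 for *H2-Q7*, 1.94 ± 0.31 for *H2-Q9*, 0.49 ± 0.24 for *H2-Q6*, 0.31 ± 0.23 for *H2-Q8*, 1.67 ± 0.31 for *H2-T23* and -2.29 ± 0.13 for *H2-Q2*. Of the 10, 6 were past the threshold used elsewhere, as were 2.76% of all genes, and nothing is read from this count. The lowest *H2-Q4* row went the other way, at 36.6 and 41.3 RPKM in QKO libraries against 62.2 and 60.2 in TKO (-0.64 ± 0.21).

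At days 1 and 2, *H2-Q2* was the only one of the 10 genes that passed, lower in QKO by -2.15 ± 0.13 at day 1 (adjusted p = 3.6e-06; 0.252% of all genes passed) and by -1.25 ± 0.13 at day 2 (adjusted p = 0.0010; 0.74% passed). *H2-K1* differed by 0.73 ± 0.22 and 0.78 ± 0.22, which did not pass (adjusted p = 0.34 and 0.11), and the other 8 genes lay between -0.72 and 0.88. For the day 1 less day 0 change of the QKO to TKO difference, which also uses the day 0 libraries, 0 of the 10 genes passed, with 8 at an unadjusted p under 0.05 (limma), and 0.21% of all genes passed. For the day 2 less day 0 change *H2-Q2* alone passed (1.05 ± 0.19, adjusted p = 0.031), with 9 at an unadjusted p under 0.05 and 0.404% of all genes passing. The other 9 genes had negative values in both, from -0.59 to -1.42 and from -0.58 to -1.73. Both changes use the day 0 libraries by which the genes were chosen, so they are a description and not read as tests. In fold terms the *H2-Q2* gap did not narrow, because log2(RPKM + 1) compresses levels near 0.

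Within each genotype, consecutive days were compared. The step from day 0 to day 1 uses the day 0 libraries through which the genes were chosen. Its values are thus a description, and its calls are not read as tests. From day 0 to day 1, 2 genes fell in TKO (42.1% of all genes fell), 9 in QKO (42.4%) and 7 in WT (46.1%), and none rose, so these counts stand against a wide background. *H2-T23* fell in all 3 genotypes (TKO -1.16 ± 0.31, QKO -2.57 ± 0.31, WT -3.43 ± 0.31), as did *H2-Q4* (TKO -1.90 ± 0.25, QKO -2.91 ± 0.25, WT -2.27 ± 0.25). *H2-K1* was at 183 and 185 RPKM in TKO libraries of day 1, against 166 and 188 at day 0, and it did not pass (0.06 ± 0.22). In WT it was at 615 and 645 RPKM at day 1, against 552 and 792 at day 0 (-0.07 ± 0.22, not passing). In QKO *H2-K1* was at 253 and 372 RPKM at day 1, against 554 and 465 at day 0 (-0.72 ± 0.22). The TKO count of 2 was 1 without TKO day 0 replicate 2 or TKO day 1 replicate 1, the QKO count of 9 was 4 without QKO day 1 replicate 1, and the WT count of 7 was 3 without WT day 0 replicate 2 and 4 without WT day 1 replicate 1.

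From day 1 to day 2, 7 genes fell in TKO (1.89% of all genes fell), 7 in QKO (1.62%) and 9 in WT (5%), and none rose. *H2-D1* fell by like amounts in all 3 genotypes (TKO -1.35 ± 0.24, QKO -1.32 ± 0.24, WT -1.37 ± 0.24). *B2m* fell to 523 and 494 RPKM in TKO libraries of day 2, against 979 and 935 at day 1 (-0.91 ± 0.21, adjusted p = 0.021). In QKO *B2m* fell to 417 and 551 RPKM at day 2, against 831 and 973 at day 1 (-0.91 ± 0.21, adjusted p = 0.034), and in WT to 653 and 760.3 RPKM, against 1527 and 1695 (-1.19 ± 0.21, adjusted p = 0.0029). The largest fall in this step was that of *H2-Q8* in WT, to 7.10 and 4.90 RPKM at day 2 against 33.7 and 34.3 at day 1 (-2.34 ± 0.23). *H2-T23* passed in no genotype. The TKO count of 7 was 1 without either TKO day 1 library or TKO day 2 replicate 2, and 2 without TKO day 2 replicate 1. The QKO count of 7 was 0 without QKO day 1 replicate 2 and 2 without QKO day 2 replicate 1, while the WT count of 9 held when any 1 library was left out but was 0 when only the 6 WT libraries entered the fit.

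Ratios within a library, which do not depend on its scaling, also parted TKO from the other groups. Per length, the summed heavy chains were at 544 and 599 RPKM in TKO and 1422 and 1190.0 in QKO libraries of day 0, against 1652 and 2380.4 in WT. *B2m* over this sum was 1.91 to 2.33 in the 6 TKO libraries and 1.11 to 1.74 in QKO libraries, against 1.19 to 1.43 in WT. All TKO libraries lay above all others, and QKO and WT overlapped. *H2-K1* over *H2-D1* was 0.603 and 0.614 in TKO and 0.938 and 1.001 in QKO libraries at day 0, against 0.962 and 0.894 in WT. At day 2 it was 1.24 and 1.33 in TKO and 2.11 and 2.33 in QKO libraries, against 1.90 and 1.59 in WT. The ratio was thus higher at day 2 than at day 0 in every genotype and lowest in TKO on each day. Of the summed heavy chains, *H2-D1* made up 50.4 and 51.0% in TKO and 41.5 and 39.1% in QKO libraries at day 0, against 34.8 and 37.2% in WT.

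The rows of *H2-Q4* split the genotypes in the same way. The lowest row over the highest was 1.07 to 1.27 in TKO and 0.268 to 0.621 in QKO libraries, against 0.328 to 0.467 in WT. The peptide transporter gene *Tap2* and the immunoproteasome gene *Psmb9*, which lie in the same complex, showed the same division: 1.01 to 1.29 in TKO and 0.303 to 0.373 in QKO libraries against 0.253 to 0.477 in WT for *Tap2*, and 1 to 1.73 in TKO and 0.231 to 0.387 in QKO libraries against 0.257 to 0.464 in WT for *Psmb9*. For *H2-K1*, *H2-D1*, *H2-Q6* and *H2-Q7* the rows agree within 0.878 to 1.06 in all libraries. The table gave no position for its repeated rows, and 169 of the 174 symbols with 4 rows were on chromosome 17. What the rows stand for was not tested.

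**Figure D4:**
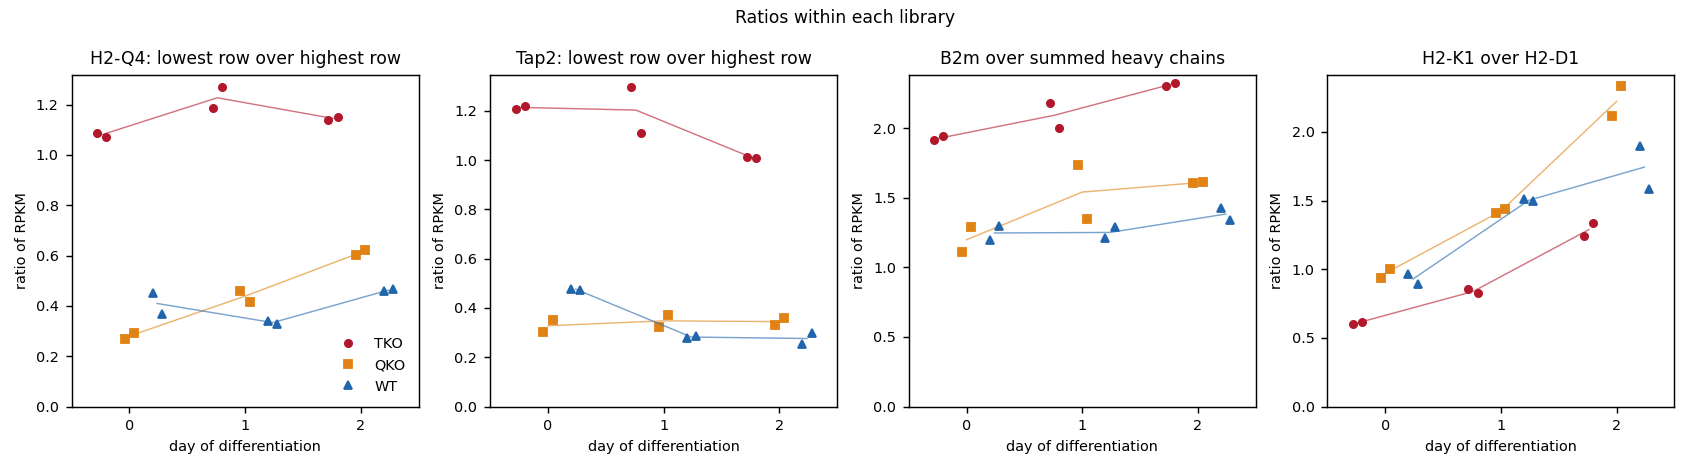
The 4 ratios of RPKM within each of the 18 libraries by day: lowest over highest row of *H2-Q4* and of *Tap2*, *B2m* over the summed heavy chains, and *H2-K1* over *H2-D1*; lines join group means. TKO libraries stand apart on each day, for example at 1.07 to 1.27 for the *H2-Q4* rows, against 0.328 to 0.467 in WT.

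Some of the genes that make and load the peptides were also lower in the mutants at day 1, but the result in TKO depended on the row. With the highest row of each symbol, 2 of 8 loading genes were lower in TKO and 1 in QKO at day 1, 2 of 5 immunoproteasome genes were lower in each mutant, and none was higher (2.08% of all genes passed in TKO and 2.76% in QKO). With the lowest row, 0 loading genes and 1 immunoproteasome gene were lower in TKO, and the QKO counts were again 1 and 2. *Psmb8*, an immunoproteasome subunit, was at 3.70 and 3.17 RPKM in TKO and 2.09 and 3.08 in QKO libraries of day 1, against 12.5 and 17.6 in WT. It was lower by -1.84 ± 0.22 and -2.16 ± 0.22 in its highest row (adjusted p = 0.00092 and 0.00028), and by -1.22 ± 0.22 and -1.74 ± 0.22 in its lowest (adjusted p = 0.014 and 0.0024). *Psmb8* thus passed in both mutants by either row.

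*Psmb9*, another such subunit, was at 1.40 and 1.68 RPKM in TKO and 2.28 and 2.90 in QKO libraries of day 1 in its highest row, against 13.9 and 14.96 in WT (-2.61 ± 0.24 and -2.11 ± 0.24). In its lowest row it was at 2.34 and 2.90 RPKM in TKO and 0.570 and 0.669 in QKO libraries, against 5.37 and 4.57 in WT. By the lowest row *Psmb9* passed in QKO (-1.88 ± 0.23, adjusted p = 0.0022) and not in TKO (-0.72 ± 0.23, adjusted p = 0.16). *Tap1* was lower by -1.71 ± 0.26 in TKO and -1.39 ± 0.26 in QKO in its highest row (adjusted p = 0.0062 and 0.015), and in its lowest row it passed in QKO (-1.10 ± 0.23, adjusted p = 0.026) but not in TKO (-0.95 ± 0.23, adjusted p = 0.053). *Tap2* turned round in TKO: it was at -1.04 ± 0.20 in the highest row (adjusted p = 0.016) and at 0.77 ± 0.22 in the lowest (adjusted p = 0.11), with lowest-row levels of 7.88 and 6.48 RPKM in TKO against 2.91 and 4.84 in WT. At day 2 no gene of either list passed against WT by either row. The day 1 medians of the lists in their highest rows were -0.31 and -0.20 (loading) and -0.62 and -0.43 (immunoproteasome) in TKO and QKO. The constitutive proteasome subunits that the immune subunits replace passed in neither mutant on days 1 and 2 (0 of 3), with *Psmb6* at -0.15 ± 0.23 and *Psmb7* at -0.16 ± 0.17 in TKO at day 1.

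**Figure D5:**
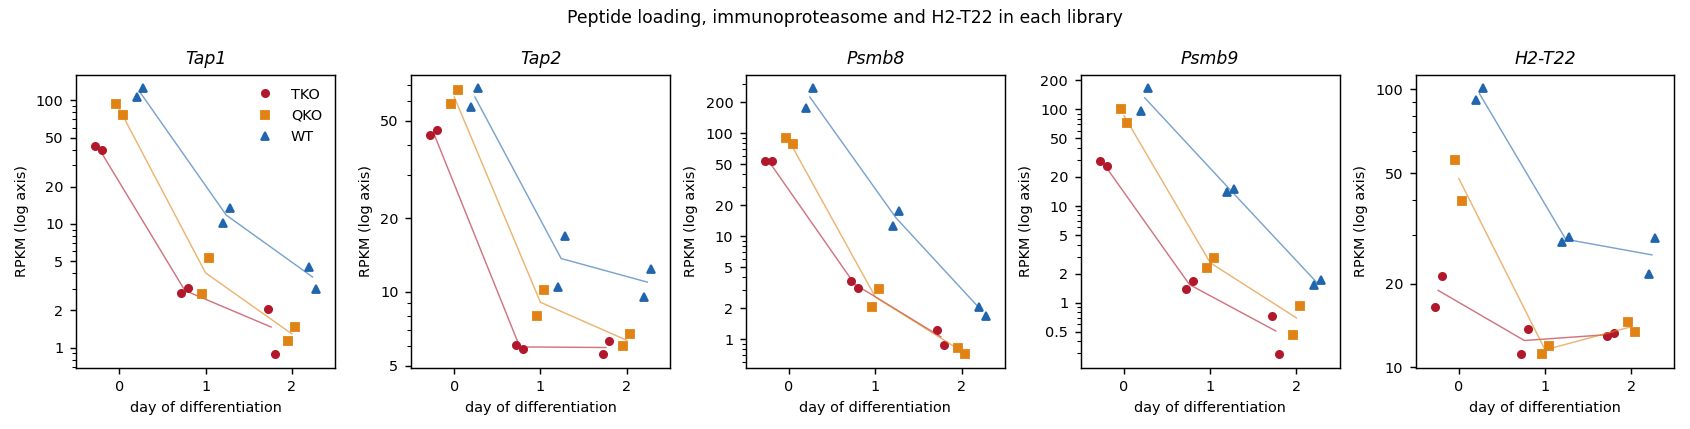
RPKM (log axes) of *Tap1*, *Tap2*, *Psmb8*, *Psmb9* and *H2-T22* in each of the 18 libraries by day, with lines through group means; the row of highest mean is drawn for each gene. In that row *Psmb9* sits at 1.40 to 2.90 RPKM in the mutants at day 1, against 13.9 and 14.96 in WT.

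Of 12 genes of interferon signalling and 12 transcription factors of class I genes, none passed in either mutant at day 1 or day 2. Among the transcription factors, *Nfyc* differed from WT by -0.10 ± 0.13 in TKO and -0.23 ± 0.13 in QKO at day 1 and *Rela* by -0.08 ± 0.13 and -0.09 ± 0.13. Larger values were found in *Nlrc5*, the class I transactivator, and *Stat2*, a mediator of interferon signals, both named after their values were seen. *Nlrc5* was at 1.11 and 1.01 RPKM in TKO and 1.43 and 2.48 in QKO libraries of day 1, against 1.95 and 3.23 in WT (-0.78 ± 0.22 and -0.28 ± 0.22, adjusted p = 0.093 and 0.52). *Stat2* was at 5.61 and 5.10 RPKM in TKO and 6.32 and 8.20 in QKO libraries, against 11.4 and 14.2 in WT (-1.11 ± 0.29 and -0.74 ± 0.29, adjusted p = 0.065 and 0.18). Both mutants lay below WT in *Stat2* without passing. Within genotypes, 9 of the 12 signalling genes fell in TKO, 10 in QKO and 11 in WT between day 0 and day 1, when 42.1%, 42.4% and 46.1% of all genes fell.

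Among 10 tested other class I and class I-like genes, 1 was lower and 2 were higher in TKO and 1 was lower in QKO at day 1, and none passed at day 2. *H2-T22*, a ligand of some γδ T cells, was at 11.2 and 13.8 RPKM in TKO and 11.1 and 11.97 in QKO libraries of day 1, against 28.3 and 29.5 in WT (-1.15 ± 0.18 and -1.25 ± 0.18, adjusted p = 0.0063 and 0.0046). By its lowest row *H2-T22* passed in neither mutant (0.12 ± 0.16 and -0.40 ± 0.16, adjusted p = 0.83 and 0.18). The 2 higher genes were *H2-Bl* (1.09 ± 0.11) and *H2-T3* (0.84 ± 0.10). These were also the 2 that were lower in QKO than in TKO on all 3 days. Both results are for the highest rows. The lowest row was at most at 0.0347 RPKM for *H2-Bl* and at 0 for *H2-T3* in every library, too low to be tested. Of 7 tested class II genes, which present peptides to CD4 T cells, none passed against WT at day 1 or day 2 in the highest rows. On those days all but *H2-DMa* were near 0 in most libraries of every group, with *H2-Aa* at most at 0.175 RPKM. They met the filter mainly through day 0, for example *H2-Eb1* at 35.1 and 48.5 RPKM in WT. The test could thus hardly find a difference, and none is read as absent. At day 0 all 7 were higher in QKO than in TKO by their highest rows, when 2.76% of all genes passed, but by their lowest rows 2 were higher and 3 lower. *H2-Ab1* turned round between its rows, from 1.96 ± 0.24 in the highest to -0.76 ± 0.10 in the lowest. Of 19 other genes that lie between the class I genes on chromosome 17, none passed against WT at day 1 or day 2 in the highest rows, and 2 were higher in TKO on each of these days in the lowest rows, with *Tubb5* in its highest row at -0.14 ± 0.20 in TKO and -0.55 ± 0.20 in QKO and *Ddx39b* in its highest row at 0.27 ± 0.14 and 0.21 ± 0.14 at day 1. Of the markers of other cells, 0 passed against WT on those days in the 4 tested immune and 3 tested fibro-adipogenic genes: the immune marker *Laptm5* was at -0.71 ± 0.36 in TKO and -1.29 ± 0.36 in QKO at day 1 (adjusted p = 0.43 and 0.073), *Itgam* at -0.46 ± 0.24 and -0.54 ± 0.24, *Ly6a* at 0.26 ± 0.18 and 0.51 ± 0.18 and *Col1a1* at 1.99 ± 0.59 and 1.42 ± 0.59. No endothelial marker passed the filter on low values, with *Cldn5* at most at 0.739 and *Pecam1* at most at 0.775 RPKM in any library.

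Over the 18 libraries the genes other than *H2-Q2* varied together. Their 36 pairs had Pearson correlations of 0.586 to 0.999 in log2(RPKM + 1), while the 9 pairs with *H2-Q2* had -0.125 to 0.392. These are descriptions over libraries that share groups and days, and pairs of near copies share reads. *B2m* was most like *H2-D1* (0.986), and *H2-K1* most like *H2-Q9* (0.963) and *H2-Q7* (0.959). Among 8130 genes outside the group with a mean of at least 5 RPKM, the 5 most like the mean of the 10 standardized genes were *Patl2* (Pearson 0.984, Spearman 0.983), *Ifi27l2a* (0.930, 0.936), *Ifi27* (0.928, 0.932), *Stat2* (0.922, 0.882) and *Dbnl* (0.915, 0.920). *Patl2* overlaps all 5396 bases of *B2m*, and its level was 0.171 to 0.175 of the *B2m* level in all 18 libraries, so its reads could not be told from those of *B2m*. *Ifi27l2a* and *Ifi27* also moved in near proportion, for example at 18.2 and 34.4 RPKM in the first TKO library of day 0. In the first QKO library of day 2 they were at 4.51 and 8.16 RPKM. They may not be independent readings, and whether they share reads was not tested.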

How the data were processed

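RNA was measured in 18 libraries of MuSCs, 2 for each of 3 genotypes on each of 3 days. Per the study's methods, the authors trimmed the Illumina HiSeq reads, aligned them with HISAT2 (2.0.5) to protein-coding genes of GRCm38.p5 and quantified them with StringTie (version not given in the sources used here). The deposited values are RPKM, in a single table in which 975 of 20612 symbols had more than 1 row. The highest-mean row of each symbol was kept, and 1401 rows were left out. The number of unused columns of per-sample values was 0.

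Groups came from the labels. A gene was kept if 2 or more libraries reached an RPKM of 1, and the 11890 genes kept were tested on log2(RPKM + 1) with limma 3.58.1 (R 4.3.3; trend and robust options), with a mean for each of 9 groups, 9 residual degrees of freedom and Benjamini-Hochberg adjustment within each contrast at 0.05. Fold changes on this scale understate changes of low genes. With 2 libraries against 2, an exact two-sided permutation test cannot go below p = 0.333, so single-gene permutation tests were not used. Whole reads were recovered from the deposited RPKM for 15599 of 16548 rows above 0 in at least 6 libraries (tolerance 0.05 reads), and 99.97% of 6579 held-out values were whole. They gave the depth and an alternative count test with voom, and covered 18 of the 26 class I rows. The rows used for *H2-K1*, *H2-D1*, *H2-Q4* and *B2m* were not covered. For such rows voom took approximate counts, made from RPKM and depth at the median gene length of 2898 bases. Scripts were tested on simulated data (Python 3.11.15, pandas 2.3.3, NumPy 2.4.6, Matplotlib 3.10.9).

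The genes, gene lists and promoter letters were chosen with earlier results of these data or knowledge of class I promoters in hand. The search for rows high in TKO and near 0 in QKO, the row ratios and 4 alternatives (the lowest row of each class I gene, the lowest row of each symbol for the other lists, all rows tested, and leaving out the second WT libraries of days 0 and 2) were chosen after the values were seen. From each other list at most 4 genes were named by rule. These had the largest difference from WT among those that passed, or were the 2 of highest mean where none did. Outside this rule are the markers named singly at day 0, and *Nlrc5* and *Stat2*. A comparison of protein sequences was planned, and coding sequences from GENCODE were compared in its place. A direct test of day 2 against day 0 was also planned and is not given, since consecutive days were tested. Other alternatives were the pseudocount, the filter, the scaling, the libraries in the fit, summed copies, a replicate block and leaving out each library. Values of 1 gene of the interferon signalling list are not reported here.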

Additional observations from a re-analysis of the deposited data

Results flagged for a closer look

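*H2-Q2* was the only one of the 10 genes for which the difference between QKO and TKO changed between days by a test of the change itself. Its difference was -2.29 at day 0 and -1.25 at day 2 in log2(RPKM + 1), a change of 1.05 ± 0.19 (limma, adjusted p = 0.031). This scale compresses differences near 0, and in fold terms the gap did not narrow. Mean levels were 5.10 RPKM in TKO and 0.249 in QKO libraries at day 0, and 1.42 and 0.020 at day 2. At day 2 the gene had 1 and 1 recovered reads in QKO libraries, against 55 and 66 in TKO. The call was lost in 12 of 30 alternatives, over which the adjusted p lay between 0.015 and 0.93, and the change was -1.13 in the count test on recovered reads. The day 0 libraries in this change are those by whose levels the genes were chosen, so its adjusted p is not read as a test.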

How the results depend on the processing

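Of 73 called values of the 10 genes, 19 passed under every alternative that gave a value: 8 of a mutant against WT, 2 of QKO against TKO and 9 between days. The 73 take in values that use the day 0 libraries by which the genes were chosen, and these are not read as tests. Among the 19, such values were *H2-Q2* in QKO against TKO at day 0 and all between days but *H2-Q2* in TKO from day 1 to day 2. Over 2291 alternative values, 2050 kept direction and call, 238 kept direction only and 3 turned round: *H2-Q4* with its lowest row was 0.14 in TKO against WT at day 1 and -0.64 in QKO against TKO at day 0, and the day 2 less day 0 change of *H2-Q2* was -1.13 with voom. Of 630 day 0 values against WT, 60 moved by more than 1 standard error and 0 turned round. Among the other lists, the lowest row of a symbol turned round *Tap2* (0.77) and *H2-T22* (0.12) in TKO against WT at day 1, and *Psmb9* (-0.41), *H2-Ab1* (-0.76) and *H2-Eb1* (-0.00097) in QKO against TKO at day 0. The cause of these changes was not tested, except that summing copies leaves fewer genes to count and that log2(RPKM + 1) compresses levels near 0.

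Counts of genes called moved as follows. With *H2-Q6* to *H2-Q9* summed, they were 4 for TKO and 5 for QKO against WT at day 1, 1 for QKO at day 2, and 4 in TKO and 4 in QKO for day 2 against day 1. With voom, whose counts were approximate for *H2-K1*, *H2-D1*, *H2-Q4* and *B2m*, they were 1 for TKO and 0 for QKO against WT at day 2. That run also gave 4 in TKO and 4 in QKO for day 2 against day 1, and 0 for the QKO to TKO change between days 2 and 0. With a mean RPKM of at least 5, which removes *H2-Q2*, they were 1 for TKO against WT at day 2, and 0 for QKO against TKO at day 1, at day 2 and for the change. With only the libraries of the day or genotype compared they were 0 for TKO and 0 for QKO against WT at day 2, 1 and 0 for QKO against TKO at days 0 and 2, 6 in TKO for day 1 against day 0, and 4 in QKO and 0 in WT for day 2 against day 1. Median-ratio scaling gave 3 in WT for day 1 against day 0 and 0 for the change, quantile normalization gave 1 in TKO for day 1 against day 0 and 0 for the change, and pseudocounts of 0.1 and 0.5 gave 0 for the change. No filter gave 2 for QKO against WT at day 2. Leaving out the second WT libraries of days 0 and 2 gave 3 for QKO against TKO at day 2 and 3 in WT for day 1 against day 0.

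Leaving out 1 library at a time gave counts of 6 to 9 for TKO against WT at day 1 and 0 to 6 at day 2, 2 to 9 for QKO against WT at day 1 and 1 to 6 at day 2, and 2 to 7, 1 to 1 and 1 to 2 for QKO against TKO at days 0, 1 and 2. For day 1 against day 0 it gave 1 to 3 in TKO, 4 to 9 in QKO and 3 to 7 in WT, for day 2 against day 1 it gave 1 to 9 in TKO, 0 to 8 in QKO and 9 to 9 in WT, and for the QKO to TKO change between days 2 and 0 it gave 0 to 1. Of 18 group pairs, 8 had a correlation of same-numbered deviations over 0.1 (range -0.38 to 0.55), among them the 3 pairs of TKO days (0.198, 0.305 and 0.437), so the numbers may pair libraries over days in TKO but did not do so throughout. A replicate block gave 8 called genes in place of 7 for TKO against WT at day 1, 9 in place of 8 for QKO, and 8 in place of 7 in TKO for day 2 against day 1, with the other counts unmoved.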
